A study of Mus musculus with 6 samples.

Results

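The tumour necrosis factor (TNF) superfamily pairs small trimeric ligands with cell surface receptors. Its genes were taken by symbol, as every gene named Tnfsf or Tnfrsf with a number in the deposited gene tables. The rule found 31 of 21675 genes, 11 ligands (Tnfsf) and 20 receptors (Tnfrsf). They were followed by RNA sequencing in mouse aortic endothelial cells, a line called Fn AB+/- in the labels and immortalised with SV40 under doxycycline control (TetOn-SV40). All groups shared that background and were taken off doxycycline before the experiment. The series has a line with human PTBP1 cDNA added back to the knockout (Rescue), the knockout of Ptbp1 itself, made by CRISPR as a single cell clone (KO), and the parental cells (WT). Each line gave 1 library with TNF at 30 ng/mL and 1 library without it, so 6 libraries formed 6 groups with no replicates. The sources used here do not give the length of the TNF treatment. A difference between lines cannot be told apart from a difference between 1 clone and the cells it came from.

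The names of the deposited files disagreed with the labels for 4 of the 6 libraries, and both readings were fitted. The library labelled Rescue_TNF was also named Rescue with TNF, and the library labelled WT was named basal, read here as WT. The library labelled KO_TNF was named Rescue, the one labelled WT_TNF was named KO with TNF, the one labelled Rescue was named KO, and the one labelled KO was named basal with TNF, read here as WT with TNF. Ptbp2, which the Ptbp1 protein is known to repress, stood at 78.8 and 70.3 CPM (expected counts scaled to a common library total) in the libraries named Rescue with and without TNF, at 185.4 and 216.3 CPM in those named KO, and at 36.6 and 38.3 CPM in those named WT. Ccl2, a chemokine induced by TNF, stood at 1688, 367.7 and 1973 CPM in the libraries named Rescue, KO and WT with TNF, against 52.3, 32.8 and 46.4 CPM in the same lines named without it. Ptbp2 was therefore not highest in the libraries labelled KO, and Ccl2 was high in the library labelled KO without TNF and low in the library labelled KO_TNF. Ptbp1 RNA itself stood at 192.0 and 180.4 CPM in the libraries named Rescue with and without TNF, at 410.2 and 383.7 CPM in those named KO and at 409.4 and 339.3 CPM in those named WT. It was called by file names for Rescue against KO (log2 change -1.17; adjusted p = 0.00536, edgeR) and Rescue against WT (-1.07; adjusted p = 0.0047, edgeR), and not for KO against WT (0.10; adjusted p = 0.408, edgeR). By the labels, Ptbp1 was called in none of these. The 2 low libraries were those labelled KO_TNF and Rescue_TNF. The deleted stretch is not given, so the mouse RNA level does not check the knockout. The word named marks the reading by file names below, and the word labelled marks that by the labels.

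Depth ran from 19598773 to 21626838 expected counts per library. Of 10 endothelial markers, 8 or 9 were under 1 TPM (a level per transcript length, scaled to a common total) in every library, with Tie1 and Emcn under 0.1 TPM in all 6. Eng, also found in other cell types, was between 147.3 and 199.9 TPM, so most defining markers of the labelled cell type were absent or nearly so. Markers of smooth muscle and fibroblasts summed to between 10943 and 25919 CPM, with 1 to 4 of the 11 markers under 1 TPM in each library. In the 3 libraries named TNF the sum was 10943, 15496 and 13755 CPM for Rescue, KO and WT. It was higher in the 3 without TNF, at 23658, 23391 and 25919 CPM in the same order. The endothelial sum, carried mostly by Eng, moved the other way, with the smallest step in the pair named KO. It was 329.64, 266.5 and 370.15 CPM with TNF against 287.79, 257.81 and 292.14 CPM without it. The blood cell markers Ptprc, Itgam, Emr1 and Cd3e were under 0.1 TPM in all 6 libraries and Csf1r was between 0.36 and 0.72 TPM. The macrophage markers Cd68 and Lyz2 lay between 10.32 and 29.28 TPM and between 3.07 and 11.91 TPM, Cd68 being higher and Lyz2 lower with TNF in each pair by file names. The epithelial list of 4 markers summed to at most 1.12 CPM. With bulk RNA, fewer cells of a type and less RNA per cell cannot be told apart, and the part of the marker shift in the results below was not tested.

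Ligands of this family bind their receptors as trimers, and the receptors recruit TRAF adaptors that activate NF-kB and MAP kinases or, where they carry a death domain, complexes that can activate caspases. Soluble TNF acts mainly through Tnfrsf1a, which most cells carry, while Tnfrsf1b responds best to membrane TNF and has no death domain. Endothelial cells are a classical target of TNF, which induces adhesion molecules and chemokines in them.

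Receptors were the better expressed side of the family. Of the 31 members, 11 reached 10 TPM in at least 1 library, 9 receptors and 2 ligands, while 13 stayed under 1 TPM in all, and Tnfrsf13b and Tnfsf14 were at 0 counts in all 6. Tnfrsf12a (Fn14, the receptor of the ligand TWEAK) had the highest maximum at 426.2 TPM, and Tnfrsf1a followed at 178.9 TPM. Tnfsf12, which encodes TWEAK, was the ligand with the highest level and lay between 63.9 and 98.9 TPM. Per library, 25 to 38 reads crossed its last splice junction, the best covered one, against 876 to 1378 expected counts for the gene. Its other annotated junctions held 3 to 16 reads each. How the reads of Tnfsf12 were assigned was not tested. Tnfrsf10b (the death receptor of TRAIL in mouse) lay between 53.4 and 91.7 TPM. The ligand of that receptor, Tnfsf10, never passed 0.45 TPM. Tnfrsf13b, Tnfrsf13c and Tnfrsf17, the B cell receptors of the ligands BAFF and APRIL, never passed 0.59 TPM. The levels of all members by library show this span from 0 to 426.2 TPM.

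**Figure D1:**
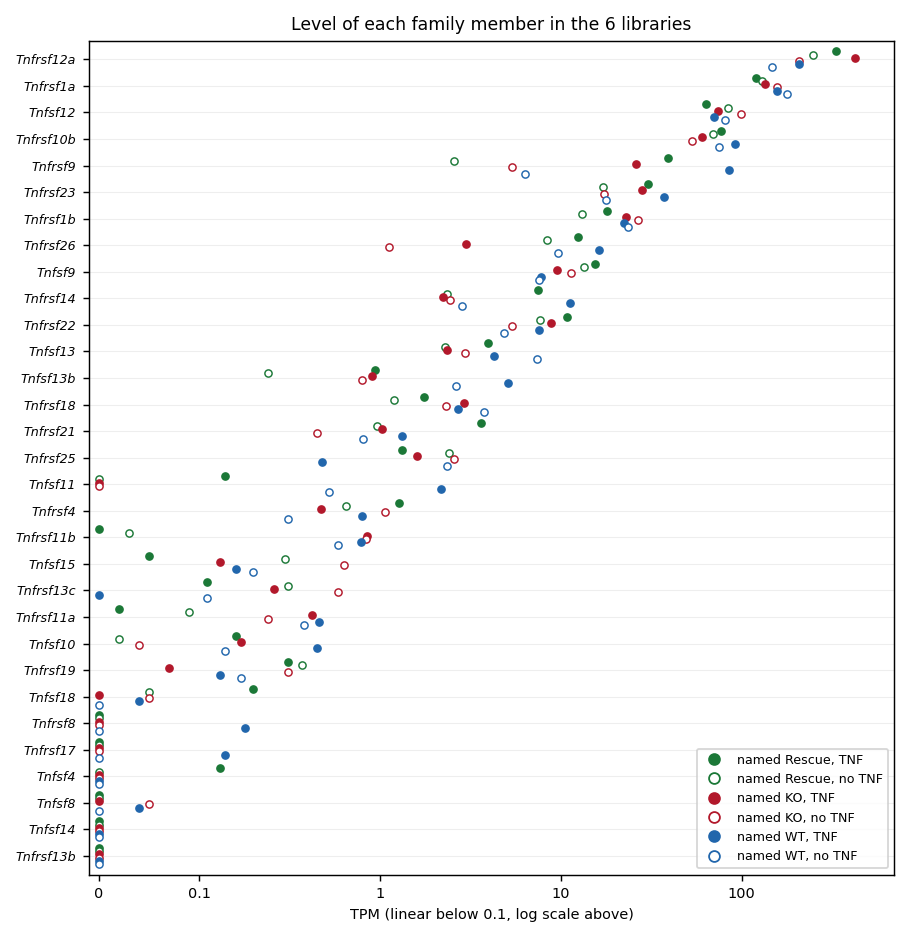
Level of each of the 31 members (rows, ordered by their maximum) in TPM, with 1 point per library, coloured by the line named in the file and filled for TNF. The axis is linear below 0.1 TPM and logarithmic above. Tnfrsf12a, Tnfrsf1a, Tnfsf12 and Tnfrsf10b stayed above 50 TPM in all 6 libraries, while Tnfrsf9 and Tnfrsf26 spread most among the members that reach 10 TPM.

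After removal of genes with low counts, 22 members were tested, 6 ligands and 16 receptors. Tnfrsf8, Tnfrsf13b, Tnfrsf13c, Tnfrsf17, Tnfsf4, Tnfsf8, Tnfsf10, Tnfsf14 and Tnfsf18 were not, and 5 members never reached 3 counts. The test was edgeR's quasi-likelihood test with line and TNF as additive terms and Benjamini-Hochberg adjustment over all genes, called at an adjusted p under 0.05. With 1 library per group, its p-values set each effect against how unequal that effect was across lines or treatments, and not against the spread between replicates.

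With groups read from file names, TNF raised 7 members and lowered none of the 22, and all 7 were receptors. That is 31.8% of the tested members, against 11.2% of all 12729 genes tested that rose, while 10.8% of all genes fell and 22.0% were called in either direction. Since the members were chosen with results known, this difference in shares was not tested. The median log2 fold change with TNF was 0.38 over the 16 receptors and 0.02 over the 6 ligands, against -0.01 over all genes. None of the 6 ligands was called. Leaving out the library labelled KO_TNF (named Rescue) or that labelled Rescue_TNF ended all 7 calls, while leaving out that labelled WT gave 3 calls and leaving out that labelled KO (named WT with TNF) gave 2. With these libraries left out, far fewer of all genes were called too, so the loss was not particular to the members. With the labelled groups the same test called 0 members and 0 genes in this comparison.

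Tnfrsf9 (CD137, known as a costimulatory receptor of T cells) had the largest rise. It stood at 39.07 TPM with TNF and 2.57 TPM without it in the libraries named Rescue, at 25.92 and 5.36 TPM in those named KO, and at 85.35 and 6.31 TPM in those named WT. The 3 libraries named TNF all lay above the 3 others. The fitted change was 3.40 ± 0.35 (log2, SE), or 10.6-fold, with an adjusted p of 0.00972 by edgeR. Its ligand, Tnfsf9, was not called with TNF and stood at 15.42 against 13.50 TPM in the libraries named Rescue, 9.54 against 11.33 TPM in those named KO and 7.79 against 7.56 TPM in those named WT (log2 change with TNF 0.09).

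RefSeq lists 2 starts for Tnfrsf9. None of the junction reads of the gene in any library left an exon ahead of the downstream start, while 47, 45 and 156 junction reads in the libraries named Rescue, KO and WT with TNF, and 3, 9 and 10 reads in those without it, left the first exon behind that start. Its window of 300 bases (chr4:150927749-150928048, + strand, GRCm38.p6, 250 bases before to 50 after the start) is shown because it was the window with both motifs searched. The capitals mark GGGGATTTCC, a match to the NF-kB form (GGG, any 3 bases, then TTCC) 43 bases ahead of the start, and TGAGTCA, a match to the AP-1 form TGANTCA 15 bases ahead of it.
Tnfrsf9 downstream start: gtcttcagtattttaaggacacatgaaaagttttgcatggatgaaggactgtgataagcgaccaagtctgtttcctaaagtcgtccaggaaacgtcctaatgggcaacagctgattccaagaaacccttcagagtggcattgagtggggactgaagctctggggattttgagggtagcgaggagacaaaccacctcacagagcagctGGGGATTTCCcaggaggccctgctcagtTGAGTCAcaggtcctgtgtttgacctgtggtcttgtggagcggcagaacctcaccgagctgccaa
Both strands were searched and the 2 forms do not overlap here. The NF-kB form was found in 5.56% of 32851 RefSeq windows of this length, and the AP-1 form in 7.81%. Of 24 members with a window, 2 held the NF-kB form (Tnfrsf9 and Tnfrsf25), and 5 held the AP-1 form (Tnfrsf8, Tnfrsf9, Tnfsf13, Tnfsf13b and Tnfsf14). Among the other receptors that rose with TNF, Tnfrsf12a, Tnfrsf21 and Tnfrsf23 had a window, with neither form in it. Tnfrsf10b, Tnfrsf22 and Tnfrsf26 had no entry.

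**Figure D2:**
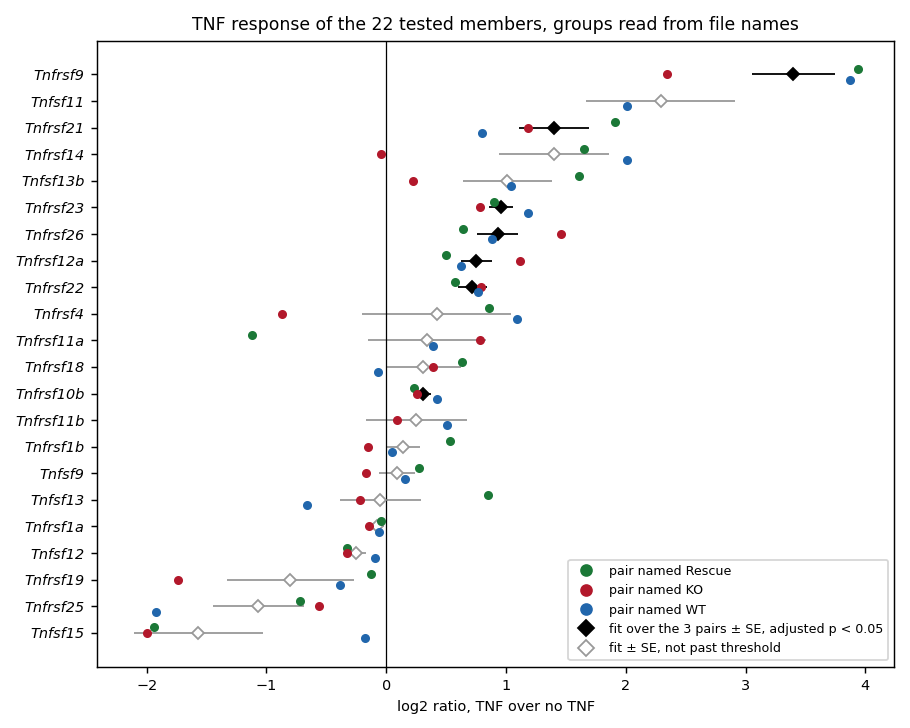
Log2 ratio of TNF over no TNF for the 22 tested members, with groups read from file names. Coloured points are the single ratios of the 3 pairs of libraries, left out where both libraries had at most 3 counts, and diamonds are the fit over the pairs with its standard error, black where the adjusted p was under 0.05. Tnfrsf9 lies farthest to the right, and the pair named KO is the lowest of its 3.

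The other receptors that rose did so by less. Tnfrsf21 (death receptor 6) stood at 3.63 TPM with TNF and 0.97 TPM without it in the libraries named Rescue, at 1.03 and 0.45 TPM in those named KO and at 1.33 and 0.81 TPM in those named WT. The 3 libraries named TNF lay above the 3 others, and the change was 1.40 ± 0.29 (log2, SE; adjusted p = 0.0326, edgeR). The closest were 40 counts in the library named KO with TNF and 38 in that named Rescue without it, with overlapping counting intervals. Tnfrsf12a stood at 331.5 TPM with TNF and 247.7 TPM without it in the libraries named Rescue, at 426.2 and 207.8 TPM in those named KO and at 208.6 and 147.6 TPM in those named WT. It was higher with TNF in each line, by 0.75 ± 0.13 (log2, SE; adjusted p = 0.0236, edgeR), although the treated and untreated libraries overlapped across lines. Tnfrsf10b stood at 77.31 TPM with TNF and 69.38 TPM without it in the libraries named Rescue, at 60.58 and 53.35 TPM in those named KO and at 91.73 and 74.89 TPM in those named WT. It rose by 0.31 ± 0.06 (log2, SE; adjusted p = 0.0342, edgeR), with single ratios of 0.23 in the pair named Rescue, 0.26 in that named KO and 0.42 in that named WT. The call on Tnfrsf10b was lost with the second set of deposited gene counts (adjusted p = 0.0608).

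3 neighbouring receptor genes rose with TNF as well. Tnfrsf26, Tnfrsf22 and Tnfrsf23 lie next to each other on the minus strand of mouse chromosome 7 (GRCm38, chr7:143607659-143628722, chr7:143634806-143649661 and chr7:143665809-143685872), and Tnfrsf22 and Tnfrsf23 encode mouse decoy receptors of TRAIL. Tnfrsf23 stood at 30.55 TPM with TNF and 17.20 TPM without it in the libraries named Rescue, at 28.14 and 17.25 TPM in those named KO and at 37.19 and 17.84 TPM in those named WT. The untreated libraries differed little from each other and the treated ones all lay above them, with a change of 0.96 ± 0.10 (log2, SE; adjusted p = 0.0096, edgeR). Tnfrsf22 stood at 10.85 TPM with TNF and 7.70 TPM without it in the libraries named Rescue, at 8.89 and 5.40 TPM in those named KO and at 7.58 and 4.83 TPM in those named WT, a change of 0.72 ± 0.12 (log2, SE; adjusted p = 0.0199, edgeR). Tnfrsf26 rose by 0.93 ± 0.17 (log2, SE; adjusted p = 0.0263, edgeR), and its levels are given with the lines below. The transcripts of Tnfrsf22 and Tnfrsf23 shared 719 of the 4147 stretches of 50 bases in Tnfrsf22 and were 88.2% identical over 2515 aligned positions, so the split of reads between this pair is uncertain. Tnfrsf26 shared no such stretch with either.

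**Figure D3:**
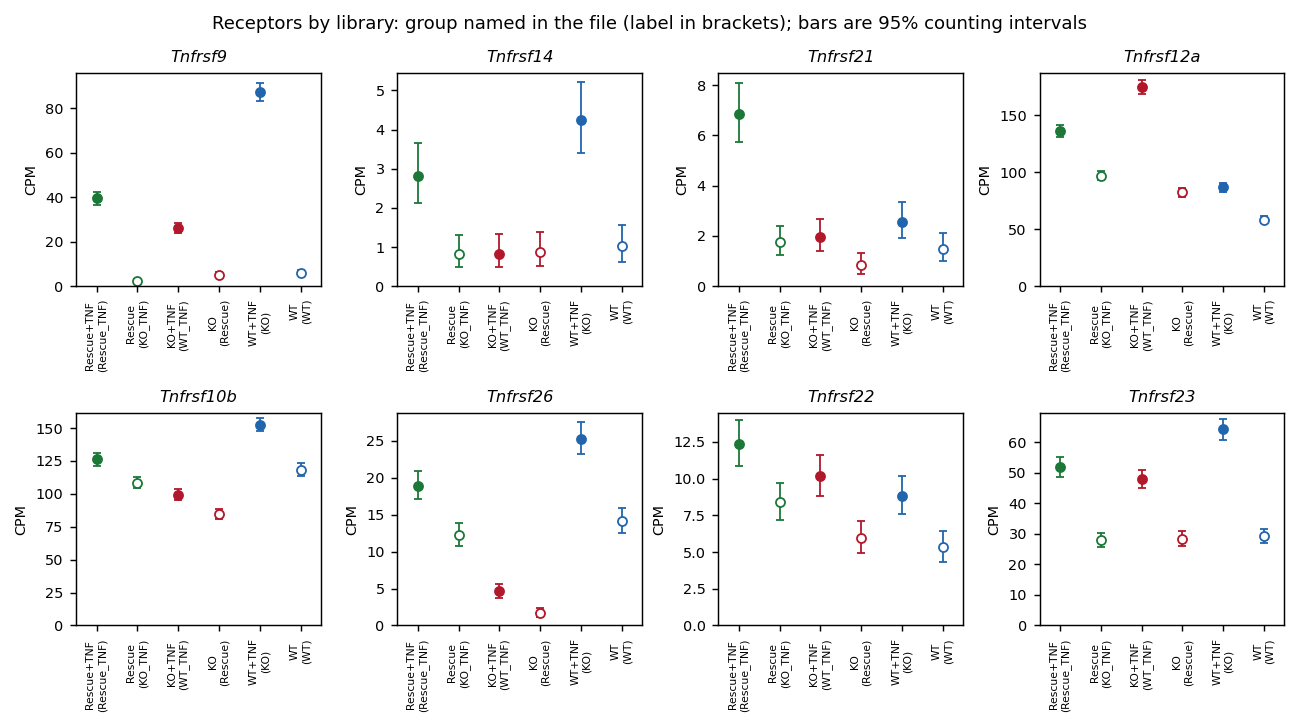
CPM of 8 receptors in each library, with 95% exact Poisson intervals that cover counting error only. Libraries are ordered as Rescue, KO and WT by file name, with TNF left of no TNF, and the label is given in brackets. Tnfrsf23 is higher with TNF in all lines, while Tnfrsf26 is low in both libraries named KO and Tnfrsf14 stays low with TNF in the library named KO.

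Members that did not pass the TNF test included the receptor Tnfrsf14 (HVEM, which binds the ligand LIGHT). It had 55 counts with TNF and 18 without it in the libraries named Rescue, 17 and 18 counts in those named KO, and 91 and 20 counts in those named WT. It was thus higher with TNF in the pairs named Rescue and WT (log2 ratios 1.65 and 2.01) and not in the pair named KO (-0.04). A test of the KO response against the mean of Rescue and WT did not pass (-1.98 ± 0.71, log2, SE; adjusted p = 0.324, edgeR). The fitted change with TNF of 1.40 had an adjusted p of 0.0854 by edgeR. Leaving out the library labelled Rescue (named KO) brought that adjusted p to 0.0064. The ligand Tnfsf11 (RANKL) gave 2.29 (log2; adjusted p = 0.0724, edgeR) and the ligand Tnfsf13b (BAFF) 1.01 (log2; adjusted p = 0.107, edgeR). At the other end were the ligand Tnfsf15 at -1.57 (log2; adjusted p = 0.0955, edgeR) and its receptor Tnfrsf25 at -1.07 (log2; adjusted p = 0.1, edgeR). Tnfsf15 had 3 counts with TNF and 19 without it in the libraries named Rescue, 8 and 39 counts in those named KO and 11 and 12 counts in those named WT. Tnfrsf25 had 20 and 38 counts in the libraries named Rescue with and without TNF, 25 and 39 counts in those named KO and 8 and 34 counts in those named WT, so it was lower with TNF in each pair.

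A total of 8 tested members were called in none of the comparisons by file names, among them the T cell costimulatory receptors Tnfrsf18 (GITR) at 1.20 to 3.77 TPM and Tnfrsf4 (OX40) at 0.31 to 1.28 TPM, and Tnfrsf19 (TROY) at 0.07 to 0.37 TPM. Tnfrsf18 had 15 counts with TNF and 10 without it in the libraries named Rescue, 26 and 20 counts in those named KO and 24 in each of those named WT. Tnfrsf4 had 13 and 7 counts in the libraries named Rescue with and without TNF, 5 and 11 counts in those named KO and 9 and 3 counts in those named WT. Tnfrsf19 had 13 and 16 counts in the libraries named Rescue with and without TNF, 3 and 15 counts in those named KO and 6 and 8 counts in those named WT. At these depths the treated and untreated libraries of all 3 genes overlapped. With the second set of counts Tnfrsf18 was called as lower in Rescue than in WT (log2 change -0.97, adjusted p = 0.0317, edgeR). Tnfsf10 (TRAIL) was too low for this test, with 8 counts with TNF and 1 without it in the libraries named Rescue, 9 and 2 counts in those named KO and 26 and 7 counts in those named WT. The receptors of the added cytokine did not pass: Tnfrsf1a had a log2 change of -0.08 and Tnfrsf1b one of 0.14.

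The TNF response of the line named KO was set against the mean response of the lines named Rescue and WT in a model with an extra term. It called 1 of 24 members tested, Tnfrsf9. Of 13147 genes, 1.70% were called in either direction, 0.502% with a larger and 1.20% with a smaller response. Low-count filtering kept more genes for this model than for the additive one, among them Tnfrsf13c and Tnfsf10. For Tnfsf11 this model gave no SE. The single log2 ratios of Tnfrsf9 with TNF were 2.34 in the pair named KO, against 3.94 and 3.87 in the pairs named Rescue and WT. The difference was -1.57 ± 0.22 (log2, SE; adjusted p = 0.0113, edgeR), and with the second set of deposited counts it was -1.49 with an adjusted p of 0.0878. This model left 1 residual degree of freedom. With the labelled groups edgeR called 0 members and 0 genes, while DESeq2 called Tnfrsf9 in this comparison.

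Tnfrsf26 had the lowest adjusted p of all members between the lines. It stood at 12.40 TPM with TNF and 8.39 TPM without it in the libraries named Rescue, at 3.0 and 1.12 TPM in those named KO, and at 16.27 and 9.61 TPM in those named WT. Both libraries named KO lay below the 4 others. The change of KO against WT was -2.69 ± 0.23 (log2, SE; adjusted p = 0.00327, edgeR), a 6.47-fold lower level, and that of Rescue against KO was 2.31 ± 0.23 (log2, SE; adjusted p = 0.0086, edgeR). It was the one member called for KO against WT with any of the 6 libraries left out. The neighbours Tnfrsf22 and Tnfrsf23 were not called between KO and WT, and their single ratios without TNF were 0.18 and -0.02 (log2).

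In all, 5 members were called for KO against WT by file names, 1 higher and 4 lower. This is 4.55% of the tested members higher and 18.2% lower, against 16.8% and 16.3% of all genes (33.0% in either direction), shares near or below the background. The median log2 change of the 22 members was -0.13, against 0.00 over all genes. Tnfrsf12a was higher by 0.78 ± 0.16 (log2, SE; adjusted p = 0.023, edgeR) and Tnfrsf10b lower by a log2 change of -0.54 ± 0.08 (SE; adjusted p = 0.0101, edgeR). The remaining pair were ligands. Tnfsf13b, which sustains B cells, had 15 counts with TNF and 13 without it in the libraries named KO, against 91 and 41 counts in those named WT, and its log2 change was -2.14 ± 0.43 (SE; adjusted p = 0.0208, edgeR). Tnfsf11, which drives osteoclast formation through its receptor RANK, had 0 counts in both libraries named KO, against 53 counts with TNF and 11 without it in those named WT (adjusted p = 0.0143, edgeR). Against a floor of 3 counts per library, Tnfsf11 was at least 16.8-fold lower with TNF and at least 3.84-fold lower without it. It passed the filter on low counts only through the libraries named WT, so its call adds no support beyond these counts. Of these calls 1 was left without the library labelled KO_TNF (named Rescue) or that labelled Rescue_TNF, 2 without that labelled KO (named WT with TNF), and 3 were made without that labelled WT or that labelled WT_TNF (named KO with TNF). With each of these libraries left out, fewer of all genes were called too, so the loss was not particular to the members. With the labelled groups 0 members and 0 genes were called for KO against WT.

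The libraries named Rescue differed from those named KO in 5 members, 2 higher and 3 lower (9.09% and 13.6% of those tested, against 9.79% and 10.6% of all genes, 20.4% in either direction), again near the background. The median log2 change of the 22 members was -0.10, against 0.01 over all genes. Besides Tnfrsf26, Tnfrsf21 was higher by 1.43 ± 0.35 (log2, SE; adjusted p = 0.0477, edgeR), with 134 and 38 counts in the libraries named Rescue with and without TNF, against 40 and 17 counts in those named KO. That call was lost with the second set of counts (adjusted p = 0.0593). Both TNF receptors were lower in Rescue than in KO. Tnfrsf1a stood at 119.5 TPM with TNF and 130.1 TPM without it in the libraries named Rescue, at 134.7 and 156.9 TPM in those named KO and at 157.8 and 178.9 TPM in those named WT. Its log2 change of Rescue against KO was -0.32 ± 0.07 (SE; adjusted p = 0.0385, edgeR, and 0.0538 with the second set of counts), and both libraries named Rescue lay below all others. Tnfrsf1b stood at 18.03 TPM with TNF and 13.12 TPM without it in the libraries named Rescue, at 22.91 and 26.82 TPM in those named KO and at 22.49 and 23.66 TPM in those named WT. Its change was -0.78 ± 0.17 (log2, SE; adjusted p = 0.039, edgeR), and again the libraries named Rescue were the lowest. Leaving out either library named Rescue ended all 5 calls. The calls over all genes ended there too, so the loss was not particular to the members. With the labelled groups 0 members and 0 genes were called for Rescue against KO.

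Both receptors of the RANK system had at most 5 counts in the libraries named Rescue. Tnfrsf11b, the soluble decoy osteoprotegerin that binds RANKL, had 0 counts with TNF and 1 count without it there, against 25 and 24 counts in the libraries named KO and 25 and 16 counts in those named WT. With TNF it was at least 7.99-fold lower than in the library named KO, against a floor of 3 counts, and without TNF the ratio was 0.04 (95% exact interval 0.001 to 0.243). The adjusted p was 0.0177 for Rescue against KO and 0.0158 for Rescue against WT by edgeR. Tnfrsf11a, which encodes RANK, had 1 count with TNF and 5 without it in the libraries named Rescue, 23 and 13 counts in those named KO and 27 and 19 counts in those named WT. It was called for Rescue against WT (log2 change -2.94 ± 0.69, SE; adjusted p = 0.0394, edgeR), and not for Rescue against KO (-2.60; adjusted p = 0.0615, edgeR). Without TNF its ratio of Rescue over KO was 0.365 (95% exact interval 0.102 to 1.091). All 3 genes of this system were low, with Tnfsf11 at most at 2.17 TPM and both receptors under 1 TPM in every library.

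Rescue against WT gave 8 called members, 2 higher and 6 lower, or 9.09% and 27.3% of those tested, against 12.5% and 12.1% of all genes (24.6% in either direction), and a median log2 change of -0.38 over the 22 members, against 0.00 over all genes. The higher ones were the ligand Tnfsf9 at 0.82 ± 0.18 (log2, SE; adjusted p = 0.0344, edgeR) and Tnfrsf12a at 0.62 ± 0.16 (log2, SE; adjusted p = 0.0482, edgeR). Both calls were marginal, since the adjusted p was 0.057 for Tnfsf9 with DESeq2 and 0.0513 for Tnfrsf12a with DESeq2's size factors in edgeR. The Tnfrsf12a call was also lost with the second set of counts. The lower ones were Tnfrsf11a, Tnfrsf11b, Tnfsf11, Tnfsf13b, Tnfrsf1a and Tnfrsf1b. For Tnfrsf1a the log2 change was -0.52 ± 0.07 (SE; adjusted p = 0.0111, edgeR). For Tnfrsf1b it was -0.66 ± 0.17 (SE; adjusted p = 0.0481, edgeR, and 0.0687 with the second set of counts). Tnfsf11 had 3 counts with TNF and 0 without it in the libraries named Rescue, against 53 and 11 counts in those named WT. Its adjusted p was 0.026 by edgeR, again for a gene that passed the filter only through the libraries named WT. Tnfsf13b had 15 counts with TNF and 4 without it in the libraries named Rescue, so its level there stayed below that of the libraries named WT (log2 change -2.85 ± 0.45, SE; adjusted p = 0.0157, edgeR). The 3 comparisons between lines share their libraries in pairs, so their calls are not independent of each other. Leaving out either library named Rescue, or that labelled KO (named WT with TNF), ended all 8 calls, and leaving out that labelled WT gave 3. The calls over all genes also ended without either library named Rescue, and were fewer without the others, so the loss was not particular to the members. With the labelled groups 0 members and 0 genes were called for Rescue against WT.

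**Figure D4:**
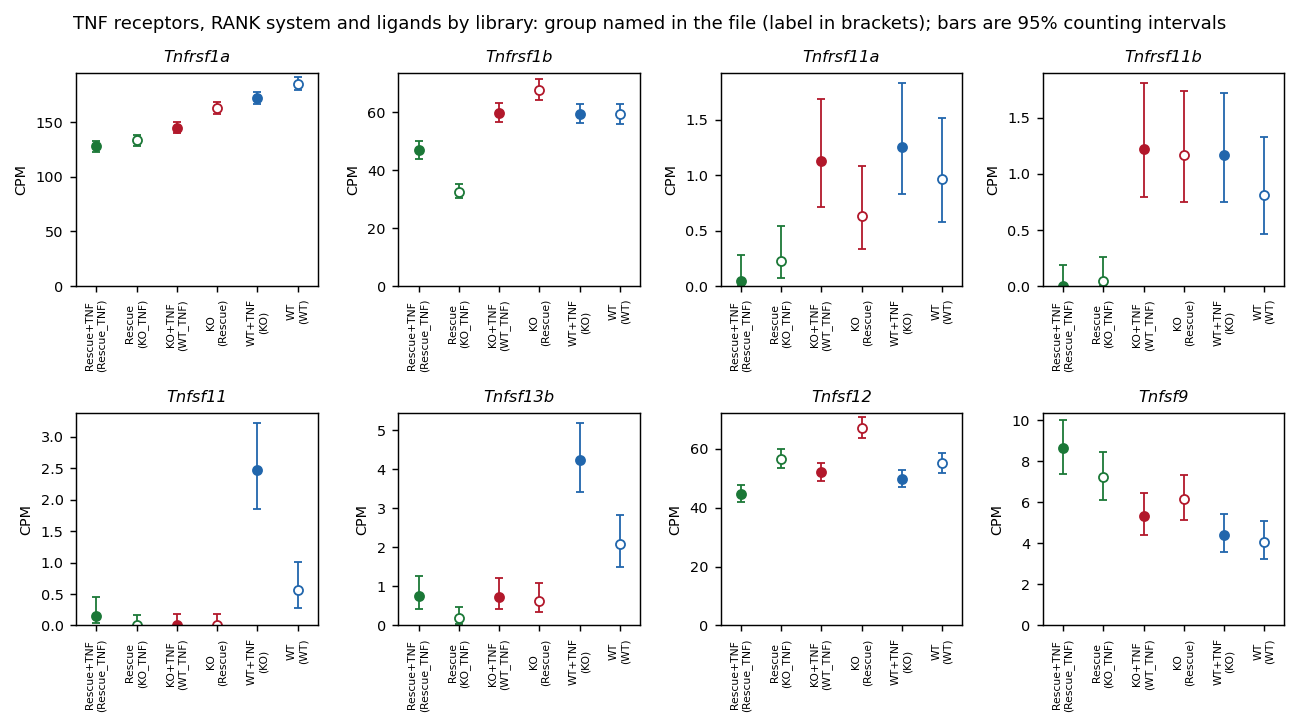
CPM of the TNF receptors, the RANK system and 3 further ligands in each library, with 95% exact Poisson intervals that cover counting error only, libraries ordered as in the plot of receptors. Tnfrsf11b was at 0 and 1 count in the libraries named Rescue, and Tnfsf11 was at 0 counts in both libraries named KO and in the library named Rescue without TNF.

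Tnfsf12, the ligand of Tnfrsf12a, stood at 63.85 TPM with TNF and 84.46 TPM without it in the libraries named Rescue, at 74.20 and 98.85 TPM in those named KO and at 70.03 and 81.41 TPM in those named WT. Its single ratios with TNF were -0.33, -0.33 and -0.09 (log2) in the pairs named Rescue, KO and WT, and its fitted change of -0.25 did not pass (adjusted p = 0.0714, edgeR, and 0.0462 with the second set of counts). Tnfsf13 (APRIL), its neighbour on chromosome 11, had 63 counts with TNF and 38 without it in the libraries named Rescue, 39 and 47 counts in those named KO and 75 and 113 counts in those named WT. It was called in none of the comparisons with the main counts, and for KO against WT with the second set (log2 change -1.01, adjusted p = 0.0467). An antisense transcript, Tnfsf13os, is annotated there too, and the sources used here do not say whether the counting used strand, so reads of Tnfsf13 and its antisense partner may not be separated.

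Of the superfamily genes under other names, few were expressed enough to be tested. Tnf itself had 1 count in the library named WT with TNF and 0 in the 5 others, and of the 7 ligands with other names Eda, which acts in skin appendages, was the one tested. Eda stood at 2.34 TPM with TNF and 2.22 TPM without it in the libraries named Rescue, at 1.02 and 1.05 TPM in those named KO and at 1.67 and 2.35 TPM in those named WT. It was lower in KO than in WT (log2 change -0.93 ± 0.22, SE; adjusted p = 0.0316, edgeR) and higher in Rescue than in KO (1.03 ± 0.22, SE; adjusted p = 0.0365, edgeR). Leaving out 1 library at a time ended the KO against WT call except without that labelled KO, where the adjusted p was 0.049. The Rescue against KO call ended without either library named Rescue or either named KO (adjusted p between 0.0501 and 0.301). Of 8 receptors with other names, 4 were tested and 1 rose with TNF. This was Fas, the death receptor of Fas ligand, at 68.36 TPM with TNF and 23.27 TPM without it in the libraries named Rescue, 36.27 and 28.16 TPM in those named KO and 169.7 and 32.80 TPM in those named WT. Its log2 change with TNF was 1.55 ± 0.39 (SE; adjusted p = 0.0478, edgeR), and the response of the line named KO differed from the mean of the others by -1.60 ± 0.32 (log2, SE; adjusted p = 0.0444, edgeR). With the second set of counts neither call held (adjusted p = 0.0625 and 0.208). Cd40, a receptor best known from B cells, had 4 counts in each of the libraries named Rescue and WT with TNF and 0 in the 4 others. The lymphotoxin receptor Ltbr stayed between 107.1 and 116.1 TPM in all 6 libraries.

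Of 14 genes for proteins that act next to these receptors, 5 rose with TNF and none fell by file names, against 11.2% and 10.8% of all genes. The adaptor Traf1 stood at 56.05 TPM with TNF and 1.41 TPM without it in the libraries named Rescue, at 17.88 and 3.44 TPM in those named KO and at 53.51 and 1.58 TPM in those named WT. Its change was 4.26 ± 0.62 (log2, SE; adjusted p = 0.0164, edgeR), and the response of the line named KO differed from the mean of the others by -2.84 ± 0.25 (log2, SE; adjusted p = 0.00156, edgeR). The ubiquitin ligase Birc3 (log2 change 1.95), the adaptor Traf3 (1.05), the caspase regulator Cflar (0.59) and the necroptosis kinase Ripk3 (0.26; adjusted p = 0.0478, edgeR, and 0.119 with DESeq2) were the others. Between the lines, Ripk1, the kinase of the Tnfrsf1a complex, stood at 28.37 TPM with TNF and 31.34 TPM without it in the libraries named Rescue, at 9.04 and 11.07 TPM in those named KO and at 26.10 and 26.24 TPM in those named WT. The change was -1.38 ± 0.10 for KO against WT (log2, SE; adjusted p = 0.00277, edgeR) and 1.48 ± 0.10 for Rescue against KO (log2, SE; adjusted p = 0.00495, edgeR). KO against WT gave 1 higher and 3 lower of these 14 genes, with Birc3 and Ripk3 also lower and Cflar higher (adjusted p = 0.0421, edgeR, and 0.0976 with DESeq2), against 16.8% of all genes higher and 16.3% lower. Cflar was called in 1 of 10 alternatives for that comparison, and Ripk3 in 2 of 10 for TNF. Leaving out either library named Rescue ended all 5 TNF calls of this list and the Rescue against KO call of Ripk1. The calls over all genes were nearly or wholly lost there too. The TNF call of Traf1 also ended without the library labelled KO (named WT with TNF). Ripk1 kept its call for KO against WT in all 10 alternatives. With the labelled groups edgeR called 0 genes of these lists in every comparison.

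Splicing of the members was read from the deposited percent-spliced-in (psi) values, the share of transcripts that include a stretch of exon, since Ptbp1 is a repressor of exons. With at least 20 estimated reads in every library, 39 stretches in 8 members could be compared. For the stretches of Tnfsf12 these estimates ran from 241 to 794, far above its junction reads. Of the 39 stretches, 3, all in Tnfrsf1b, differed by at least 0.2 between libraries. With 1 library per group these values were not tested. The stretches lie in exons 2 and 3 of the gene, and exon 2 is shown because it is the one left out most often. It is coding, 103 bases long and thus not a multiple of the codon length, at chr4:145229004-145229106 (minus strand, GRCm38).
Tnfrsf1b exon 2: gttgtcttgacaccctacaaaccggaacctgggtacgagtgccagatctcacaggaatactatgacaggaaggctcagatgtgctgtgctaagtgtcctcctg
The psi of its first stretch was 1.0 with TNF and 0.886 without it in the libraries named Rescue, 0.755 and 0.604 in those named KO and 0.834 and 0.858 in those named WT. Both libraries named KO were the lowest. Counted on junction reads, 7.3% of 41 reads with TNF and 11.1% of 36 reads without it left the exon out in the libraries named Rescue, against 20.8% of 53 and 29.9% of 67 reads in those named KO and 13.6% of 66 and 10.9% of 55 reads in those named WT. The exact 95% interval of the library named KO without TNF ran from 19.3% to 42.3%, and overlapped that of the library named WT without TNF, from 4.1% to 22.2%.

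The exon that splits the reads of Tnfrsf9 most was looked at after its values were seen, since its coverage in the untreated libraries was under 20 reads. It is exon 7 of 8, coding, 135 bases long and thus a multiple of the codon length, at chr4:150935422-150935556 (+ strand, GRCm38).
Tnfrsf9 exon 7: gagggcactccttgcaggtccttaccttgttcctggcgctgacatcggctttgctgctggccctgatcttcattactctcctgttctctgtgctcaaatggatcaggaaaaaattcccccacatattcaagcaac
Among libraries named TNF, its psi was 0.521 in Rescue (authors' interval, of a level not given, 0.436 to 0.604, 92 reads), 0.5 in KO (0.407 to 0.593, 75 reads) and 0.373 in WT (0.315 to 0.435, 173 reads). The untreated libraries had 4, 8 and 12 reads, too few to place the value. In the receptor Fas, the coding exons of 62 and 54 bases had a psi of 1.0 in all 6 libraries.

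**Figure D5:**
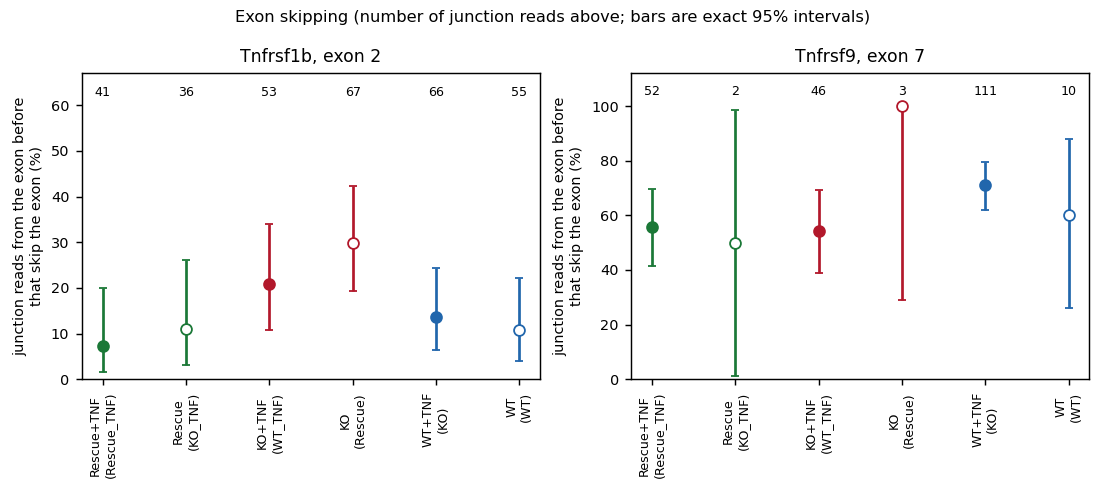
Share of the reads leaving the exon before that skip exon 2 of Tnfrsf1b (left) and exon 7 of Tnfrsf9 (right) in each library, in percent, with exact 95% binomial intervals and the number of junction reads above each point. Skipping of the Tnfrsf1b exon is highest in the libraries named KO, at 20.8% and 29.9%, with intervals that overlap those of other lines.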

How the data were processed

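Libraries were made from messenger RNA with a SMARTER kit and sequenced, per the labels' protocols. For each library the authors deposited expected counts and TPM per gene from RSEM, which is named in the submitters' processing notes, a second table with TPM and counts per gene, psi values (a fraction from 0 to 1) and counts of junction reads. The sources used here give no aligner, build or strand setting. For the library named KO, isoforms were summed to genes. The members and lists were chosen with earlier results of these data known. Every member is named, with its value in every library where it passed the filter on low counts of the additive model. Of the other lists, called genes (at most 6 per list) and Tnf, Fas, Cd40 and Ltbr are named.

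Expected counts were rounded and filtered with filterByExpr (12729 of 21675 genes kept, or 13147 with the extra TNF term for KO). They were scaled by TMM and fitted with edgeR 4.0.16 (R 4.3.3) by the quasi-likelihood test. The terms were line and TNF (2 residual degrees of freedom), or these with an extra TNF term for KO (1 degree). The design was fitted for groups from the labels and, since readouts went against 4 labels, from the file names. SE is the log2 change over the square root of F. With the labels, edgeR called 0 genes in each comparison: unadjusted p-values under 0.05 numbered 491 for TNF, 29 for KO against WT, 27 for Rescue against KO, 91 for Rescue against WT and 841 for the extra term, and DESeq2 1.42.0 called 93, 0, 3, 9 and 295 genes. Count intervals (95%) cover counting error only. Coordinates are from GENCODE vM21 (GRCm38). The files name no build, but all 31 members matched that annotation by symbol. One of the blood cell markers is not reported here.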

Additional observations from a re-analysis of the deposited data

Results flagged for a closer look

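With groups read from file names, the TNF response of 3 genes differed between the line named KO and the mean of Rescue and WT by a test of the difference itself. The difference (KO minus the mean of the others, log2) was -1.57 for Tnfrsf9, -1.60 for Fas and -2.84 for Traf1. The calls on Tnfrsf9 and Fas were lost with the second set of counts. That on Fas was also lost with DESeq2's size factors in edgeR. The call on Traf1 held in all 4 alternatives, in a model with 1 residual degree of freedom.

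For 3 members the single log2 ratios with TNF had opposite signs between lines, past 0.5 each way in at least 1 pair, and these differences were not tested. The single log2 ratios of Tnfrsf11a were -1.12 in the pair named Rescue, 0.78 in that named KO and 0.39 in that named WT. Tnfrsf4 (OX40) gave 0.86 in the pair named Rescue, -0.87 in that named KO and 1.09 in that named WT. Tnfsf13 gave 0.85 in the pair named Rescue, -0.22 in that named KO and -0.66 in that named WT. Tnfrsf4 had at most 13 counts in a library and Tnfrsf11a at most 27, and the exact 95% interval of the ratio of TNF over no TNF included 1 in every pair of both genes, so opposite movement is not shown for them.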

How the results depend on the processing

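By file names, 19 of 26 called values of members kept their call in every alternative processing in which they were tested. These were another size factor, DESeq2, no filter on low counts and the second set of counts. Tnfsf11 was not tested with the second set, so its KO against WT and Rescue against WT calls were not checked there. The extra TNF term for KO called 224 genes, against 116 with DESeq2's size factors in edgeR, 133 with DESeq2, and 20 genes and 0 members with the second set of counts. With the labels, DESeq2 called 93 genes for TNF, 3 for Rescue against KO, 9 for Rescue against WT and, for the extra term, 295 genes and 1 member, where edgeR called 0. Leaving out 1 library at a time (1 residual degree of freedom, a lone library being assumed to vary like the others) gave 3 to 3744 genes and 0 to 10 members for TNF, 1075 to 4048 genes and 1 to 7 members for KO against WT, 0 to 2716 genes and 0 to 5 members for Rescue against KO, and 0 to 4581 genes and 0 to 11 members for Rescue against WT; with the labels all were 0. The library labelled KO_TNF (named Rescue) and that labelled Rescue_TNF each left 0 members called in these comparisons except KO against WT, with 1. Without the library labelled WT, 3 members each were called for TNF, KO against WT and Rescue against WT, and without that labelled KO (named WT with TNF) 2, 2 and 0. Without that labelled WT_TNF (named KO with TNF), 3 were called for KO against WT. Tnfrsf9, at -0.16 (log2) for Rescue against KO, ran from -1.10 to 0.48 with 1 library left out. The highest was without the library labelled Rescue (named KO), which leaves the line named KO only with TNF. The lowest was without that labelled WT_TNF (named KO with TNF), which leaves that line only without TNF. Tnfrsf9 stood at 39.07 TPM in Rescue against 25.92 TPM in KO with TNF, and at 2.57 against 5.36 TPM without it, by file names. The extra term could not be fitted with a library left out. Over all alternatives the log2 change ranged from -4.64 to -1.98 for Tnfrsf11a and from -7.49 to -4.15 for Tnfrsf11b (Rescue against WT), from -1.08 to -0.49 for Tnfrsf1b (Rescue against KO) and from 0.49 to 1.05 for Tnfrsf12a (KO against WT). With at least 50 reads, 0 stretches of members passed the psi range, against 3 with 20, because fewer stretches were compared (30 in 6 members). No paired analysis was possible because each group has 1 library and the labels give no shared replicate numbers, but the line term of the fit already sets each library with TNF against the one without it in its line.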
